A study of Mus musculus with 24 samples.

Results

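The 37 genes of the mouse mitochondrial chromosome, those whose symbol starts with mt-, were described in 24 tumors of the BURP lines, out of 53465 genes in the count table. They are 13 genes for proteins, 2 for ribosomal RNAs (rRNAs) and 22 for transfer RNAs (tRNAs). The BURP lines are bladder tumors raised in C57BL/6NTac mice with the carcinogen BBN in the drinking water and kept by subcutaneous passage in mice of the same strain and sex. There were 3 tumors of each of 8 lines. The basal/squamous (Ba/Sq) type is represented by BURP-12BaSq, by BURP-17BaSq and by BURP-18BaSq, which are male, while BURP-21BaSq, BURP-24BaSq and also BURP-25BaSq of the same type are female. BURP-16SR, which is stromal-rich, and BURP-19NE, which is neuroendocrine, are male. In the paper's classification, 2 of 3 BURP-16SR replicates went with the stromal-rich class and 1 of 3 with the neuroendocrine-like class. Each line goes back to 1 donor tumor, so the tumors of a line are replicates of that line and not of a subtype, and the p-values measure the spread between such tumors. Tumors are named by cage and mouse or by passage, as the labels do, and no sequencing batch is given.

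The mitochondrial chromosome is a small circle that is transcribed from both strands as long precursors, which are cut into mRNAs, rRNAs and tRNAs largely at the tRNAs that punctuate them. Its mRNAs encode subunits of respiratory complexes I, III, IV and V, and all other subunits of these complexes, the whole of complex II and the proteins of the mitochondrial ribosome come from nuclear genes. Complex I oxidizes NADH, complex III passes electrons to cytochrome c, complex IV reduces oxygen and complex V makes ATP. Nuclear chromosomes carry old copies of mitochondrial DNA, to which reads of mitochondrial RNA can also map.

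The depth was 9295708 to 25370320 counts per tumor, of which 107088 to 576642 fell on the 37 genes. Krt5, a basal keratin, averaged 4130 CPM (counts per 1000000 counts of the TMM-scaled library) in the 18 Ba/Sq tumors and reached no more than 0.337 CPM in BURP-16SR and 0.0418 CPM in BURP-19NE. The summed level of the neuroendocrine markers was 252 to 361 CPM in BURP-19NE, above the highest Ba/Sq tumor at 109 CPM. A pair of libraries stood apart. In C102-M30 of BURP-25BaSq, 61.9% of all counts fell on CT010467.1, a nuclear rRNA sequence, which took 0.18% to 1.85% in the other 23 tumors, and the TMM factor of this library was 0.23 against 0.732 to 1.271 elsewhere. C102-M1, labelled BURP-25BaSq, correlated at r = 0.893 and 0.882 with the other tumors of that line and at r = 0.963 to 0.978 with the BURP-21BaSq tumors, over 17026 genes, which are not independent replicates. Results that changed without either are also given without it. These are bulk tumors, in which fewer cells of a type and less RNA per cell cannot be told apart.

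The sequences that decided where a read could be counted are shown first, from the mitochondrial chromosome (M) of GRCm38. The coding regions of mt-Atp8 and mt-Atp6, which encode subunits of complex V on 1 shared mRNA, overlap by 43 bases, and those of mt-Nd4l and mt-Nd4, which encode subunits of complex I, overlap by 7 bases. The overlaps are in capitals within the longer stretches M:7902-7994 and M:10142-10198 on the + strand.

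mt-Atp8/mt-Atp6: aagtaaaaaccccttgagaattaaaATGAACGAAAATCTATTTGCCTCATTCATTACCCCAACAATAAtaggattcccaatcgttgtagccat
mt-Nd4l/mt-Nd4: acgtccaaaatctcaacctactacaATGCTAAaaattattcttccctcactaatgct

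An insertion of mitochondrial DNA on chromosome 1, on the - strand, holds 7 annotated pseudogenes that match 7 of the mRNA genes. Gm28661 (chr1:24614885-24615565) was identical to mt-Co2 (subunit 2 of complex IV, chrM:7013-7696) over 681 matched bases, Gm28437 to mt-Co3 over 783, Gm10925 to mt-Atp6 over 678, Gm10222 to mt-Nd4l over 294 and Gm28439 to part of mt-Nd4 over 876. Gm29216 differed from mt-Co1 at 1 of 483 aligned bases (A1066T, counted from the first base of mt-Co1) and Gm28438 from mt-Nd3 at 1 of 345 (T3C, counted likewise). These differing bases are in capitals in the next 4 lines. In the last pair the capitals mark the stop codon of mt-Co2, which is in the mitochondrial gene and not in the annotated copy, and all else is identical.

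mt-Co1 (M:6390-6434, +): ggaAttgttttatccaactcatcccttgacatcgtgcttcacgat
Gm29216 (1:24616144-24616188, -): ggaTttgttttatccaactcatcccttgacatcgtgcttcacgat
mt-Nd3 (M:9459-9503, +): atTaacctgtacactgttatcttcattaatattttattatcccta
Gm28438 (1:24613075-24613119, -): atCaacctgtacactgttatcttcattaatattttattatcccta
mt-Co2 (M:7637-7696, +): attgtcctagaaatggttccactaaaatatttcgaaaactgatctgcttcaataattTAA
Gm28661 (1:24614885-24614941, -): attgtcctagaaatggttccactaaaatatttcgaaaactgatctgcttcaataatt

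The deposited counts of these gene pairs were divided very unevenly. Of the counts on mt-Co2 and its copy, a median of 98.4% over the 24 tumors stood on the copy, with a range of 95.1% to 100%. The copy held 75.9% to 100% for mt-Co3, 79.7% to 89.9% for mt-Atp6 and 51.9% to 80.1% for mt-Nd4l. For mt-Nd3 it held 0% to 55.4%, for mt-Co1 0% to 4.15% and for mt-Nd4 no more than 0.222%. Over all pairs the copies held 31.3% to 47.6% of the counts. In C102-M30, mt-Co3 stood at 1 count (0.432 CPM), while gene and copy together gave 1710 CPM. RNA of gene and copy cannot be told apart where the bases are the same, so mt-Co2, mt-Co3, mt-Atp6, mt-Nd4l and mt-Nd3 are uncertain as deposited, and the tests on them were also run with the counts of the copy added.

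**Figure D1:**
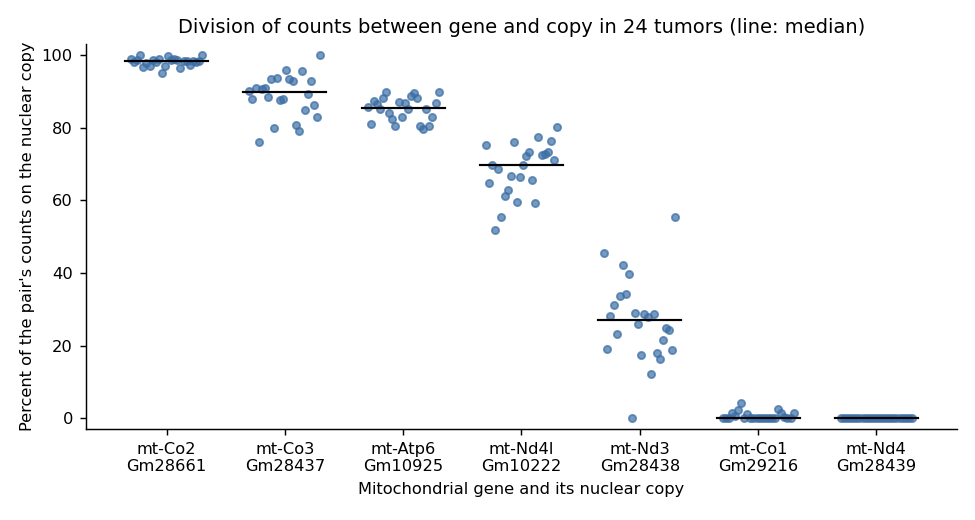
Percent of the counts of each mitochondrial gene and its chromosome 1 copy that the deposited table places on the copy (y axis), for 7 pairs (x axis), with 1 point per tumor and the median as a line. The mt-Co2 points lie between 95.1% and 100%, and those of mt-Nd4 at or near 0.

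By level per kilobase, with copies added, the complex IV gene mt-Co1 was the highest mRNA at 4850 ± 1400 CPM per kilobase (SD, n = 24). It was followed by mt-Co2 (3530 ± 1040), mt-Atp6 (3440 ± 1150), mt-Co3 (2410 ± 809) and mt-Cytb (2070 ± 764), the complex III subunit cytochrome b. The complex I mRNAs lay lower, from mt-Nd1 at 1520 ± 554 to mt-Nd3 at 441 ± 179 CPM per kilobase. Counts were divided by the whole annotated length, and the part of gene length in this order was not tested. In the pool of mRNAs per kilobase, mt-Atp8 (204 bases) averaged 5.2% and mt-Atp6 (681 bases) 14.1%, although they share 1 mRNA. Within tumors, mt-Co1 lay above mt-Co2, and mt-Atp6 above mt-Co3, in 24 of 24 tumors, while mt-Co2 lay above mt-Atp6 in 13 of 24. As deposited, mt-Co2 would be the lowest mRNA of all, at 66.6 ± 43.0 CPM per kilobase.

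The 13 mRNAs together took 0.395% to 2.68% of all counts as deposited, which leaves out counts on the copies. With copies added they took 0.55% to 3.8%, with line means from 1.54% in BURP-18BaSq to 3.25% in BURP-19NE. The shares and share tests that follow are as deposited. BURP-19NE tumors were at 2.20%, 2.57% and 2.45%, and BURP-12BaSq at 1.92%, 2.68% and 1.85%. BURP-17BaSq tumors were at 1.65%, 1.84% and 1.3%, BURP-18BaSq at 1.24%, 1.21% and 1.11%, and BURP-21BaSq at 1.62%, 1.48% and 1.76%. BURP-19NE had the highest line mean (2.41%) and BURP-18BaSq the lowest (1.19%), and their tumors did not overlap. BURP-24BaSq tumors were at 1.55%, 2.24% and 1.51%. BURP-25BaSq was at 2.62% in C102-M3, 0.395% in C102-M30 and 1.46% in C102-M1, and BURP-16SR at 0.755% in C73-M10, 2.6% in C74-MNT and 1.84% in P5. These last lines thus spanned most of the range of the whole set. The 95% Wilson interval of the C102-M30 share, 0.391% to 0.399%, covers counting error only. With nuclear rRNA genes and Gm26917, an RNA gene rich in rRNA sequence, taken out of the total, C102-M30 stood at 1.06% and the highest tumor was 3.32 times the lowest, against 6.79 times over all counts. Lines accounted for 36.9% of the sum of squares of the mRNA share over the 24 tumors and for 46.4% without C102-M30. With so few tumors per line, a sizeable part of such a figure arises even where lines do not differ.

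**Figure D2:**
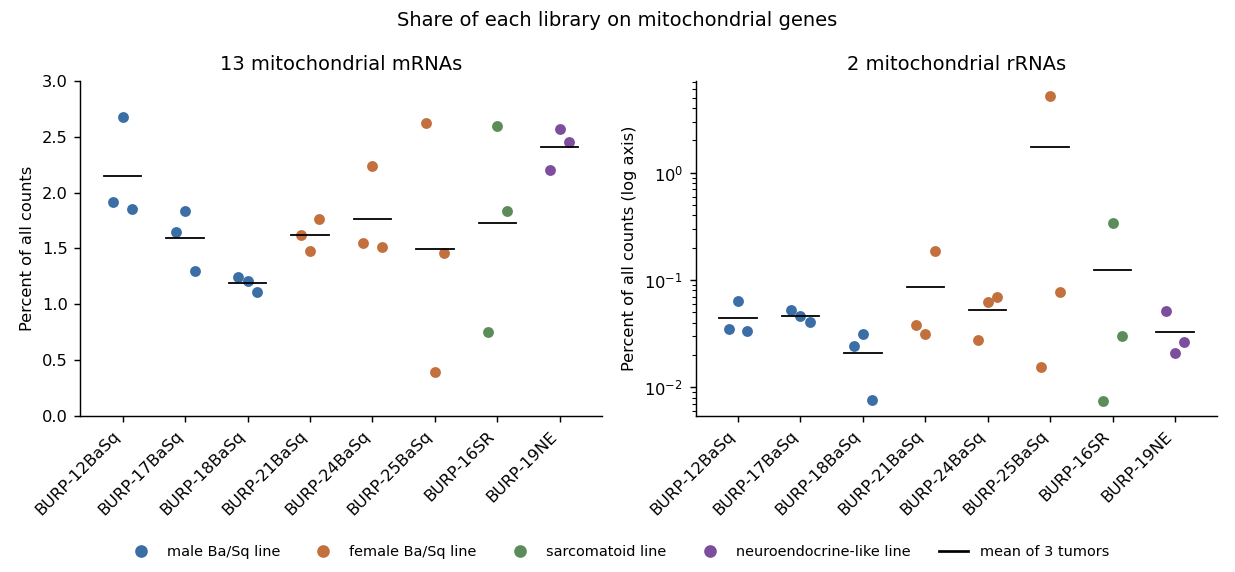
Percent of all counts on the 13 mitochondrial mRNAs (left, linear axis) and on the 2 mitochondrial rRNAs (right, log axis) for each of the 3 tumors of the 8 lines, with the line mean as a bar. C102-M30 of BURP-25BaSq is the lowest point at the left, at 0.395%, and the highest at the right, at 5.16%. The shares are of counts as deposited, without copies added.

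None of the 15 comparisons of shares (3 gene classes in 5 comparisons) passed an exact two-sided permutation test after adjustment over all 15. The mRNA share of BURP-19NE was 2.41 ± 0.188% (SD, n = 3) and that of Ba/Sq tumors was 1.63 ± 0.54% (SD, n = 18), a difference of 0.774 percentage points (exact permutation p = 0.0241, adjusted p = 0.361). For BURP-16SR, at 1.73 ± 0.925%, the difference from Ba/Sq was 0.0962 points (exact p = 0.8, adjusted p = 1). Between the 9 male and the 9 female Ba/Sq tumors the mRNA share differed by 0.019 points, at 1.64 ± 0.499% and 1.63 ± 0.608% (exact p = 0.944, adjusted p = 1). BURP-16SR against BURP-19NE and BURP-24BaSq against BURP-16SR, with 3 tumors each, could not give a p below 0.1 and differed by -0.677 and 0.0326 points.

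The mitochondrial rRNAs mt-Rnr1 (12S rRNA, M:70-1024) and mt-Rnr2 (16S rRNA, M:1094-2675), the RNA core of the mitochondrial ribosome, were measured after removal of rRNA from the libraries, so that their counts are what was left. mt-Rnr1 had 236052 counts in C102-M30, 31117 in C74-MNT of BURP-16SR, 22386 in P5 of BURP-21BaSq and 179 to 5289 in the other 21 tumors. mt-Rnr2 had 268747, 16337 and 20681 counts in the same tumors and 740 to 11350 in the others. Their share of all counts was 5.16% in C102-M30 and 0.00751% to 0.337% elsewhere. The 3 tumors that are high for one rRNA were high for the other, while their mRNA shares ran from the lowest of all tumors (C102-M30) to nearly the highest (C74-MNT).

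Lars2, the nuclear gene of the mitochondrial leucyl-tRNA synthetase, took 2.57% of the counts of C102-M30, 0.0388% of C74-MNT, 0.00966% of BURP-21BaSq P5 and 0.0756% of C102-M1. In the other 20 tumors it took 0.000669% to 0.00332%. The tumors with the 3 highest rRNA shares were thus among the 4 highest for Lars2. Lars2 was included as a nuclear gene taken to hold mitochondrial sequence, although the search for copies over at least 200 bases did not list it. Whether reads that fit both Lars2 and mitochondrial genes have a part in the rRNA values was not tested. The ratio of mt-Rnr2 to mt-Rnr1 per kilobase had a median of 3.31 and ran from 0.317 in C74-MNT to 6.34.

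Mitochondrial tRNAs were close to absent from these libraries. They are 59 to 75 bases long, and the libraries were sequenced in pairs with 100 cycles. Whether length has a part in these low counts was not tested. Of the 22 tRNA genes, 9 had 0 counts in every tumor, and all 22 together had 414 counts over the 24 tumors, or 2 to 33 per tumor. A count of 0 allows up to 3 counts, or 0.106 to 1.33 CPM by tumor. Most of the counts, 349 of 414, fell on mt-Ts1 (a serine tRNA, M:6870-6938, - strand, 283 counts and 1 to 28 per tumor) and mt-Tm (methionine, M:3845-3913, + strand, 66 counts and 0 to 8 per tumor). mt-Ts1 shares its last 3 annotated bases with the end of mt-Co1 on the opposite strand, and mt-Tm ends directly before mt-Nd2. The pair is shown with the first 60 bases of mt-Nd2, whose start codon ATA, read as methionine in mitochondria, is in capitals.

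mt-Ts1: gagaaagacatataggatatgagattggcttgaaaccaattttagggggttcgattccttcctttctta
mt-Tm: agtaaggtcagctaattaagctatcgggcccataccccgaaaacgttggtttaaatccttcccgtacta
mt-Nd2 (M:3914-3973, +): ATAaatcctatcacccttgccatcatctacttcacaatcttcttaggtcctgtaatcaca

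The filter on low counts kept 16 of the 37 genes, all 13 mRNAs, both rRNAs and mt-Ts1. How the neuroendocrine line and the stromal-rich line differ from the Ba/Sq lines was then asked of each gene, with edgeR's quasi-likelihood test over all genes and Benjamini-Hochberg adjustment, and a call is an adjusted p under 0.05.

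In BURP-19NE, mt-Nd2 and mt-Nd4, which encode membrane subunits of complex I, were higher than in the Ba/Sq tumors. Of the 16 genes tested, 2 were called higher and none lower, while 33.5% of the 20995 genes tested were called (15.5% higher and 17.9% lower). Tested without adjustment, the same 2 of 16 were under 0.05. mt-Nd2 stood at 1470, 1550 and 1420 CPM in the BURP-19NE tumors. In the 18 Ba/Sq tumors its lowest, median and highest values were 295, 567 and 1280 CPM, the highest in C102-M30 and the next, 1010 CPM, in C102-M3. All 3 BURP-19NE tumors lay above all Ba/Sq tumors, and mt-Nd2 was the only one of the 16 genes whose groups did not overlap, against 17.9% of all genes. Its log2 fold change was 1.3 (SE 0.31, adjusted p = 0.00291). The call was made in all 31 alternatives run, with adjusted p from 0.000277 to 0.0254.

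mt-Nd4 stood at 2420, 2580 and 2550 CPM in BURP-19NE, and its lowest, median and highest values in Ba/Sq tumors were 808, 1460 and 2580 CPM. C102-M3 reached the level of BURP-19NE, so the groups touched. The log2 fold change was 0.82 (SE 0.26, adjusted p = 0.0175), and leaving out any 1 of the 3 BURP-19NE tumors ended the call (adjusted p up to 0.0962).

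The other complex I mRNAs did not pass, with log2 fold changes of 0.55 for mt-Nd4l, 0.50 for mt-Nd1, 0.48 for mt-Nd3, 0.37 for mt-Nd5 and -0.24 for mt-Nd6 (adjusted p = 0.122 to 0.536). mt-Cytb was at 0.51 (SE 0.27, adjusted p = 0.143), mt-Co1 at 0.14 and mt-Atp8 at 0.18. The log2 fold change was above 0 in 9 of the 13 mRNAs, with a median of 0.37, against -0.14 over all genes tested. The 4 mRNAs below 0 included mt-Co2 (-1.0), mt-Co3 (-0.36) and mt-Atp6 (-0.17), whose counts stand mostly on the copies. With copies added these were at 0.06, 0.57 and 0.03, and 4 genes were called higher, mt-Nd2, mt-Nd4, mt-Nd4l (0.65, adjusted p = 0.0357) and mt-Co3 (0.57, adjusted p = 0.0412). Neither rRNA passed, at -6.47 (SE 3.77) for mt-Rnr1 and -5.07 (SE 2.87) for mt-Rnr2. The Ba/Sq tumors here include C102-M30, at 105000 CPM for mt-Rnr1 and 120000 CPM for mt-Rnr2. With 1 tumor left out at a time, the log2 fold changes ran from -7.51 to -0.76 for mt-Rnr1 and from -5.44 to -0.66 for mt-Rnr2. Neither was called in any of these fits.

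**Figure D3:**
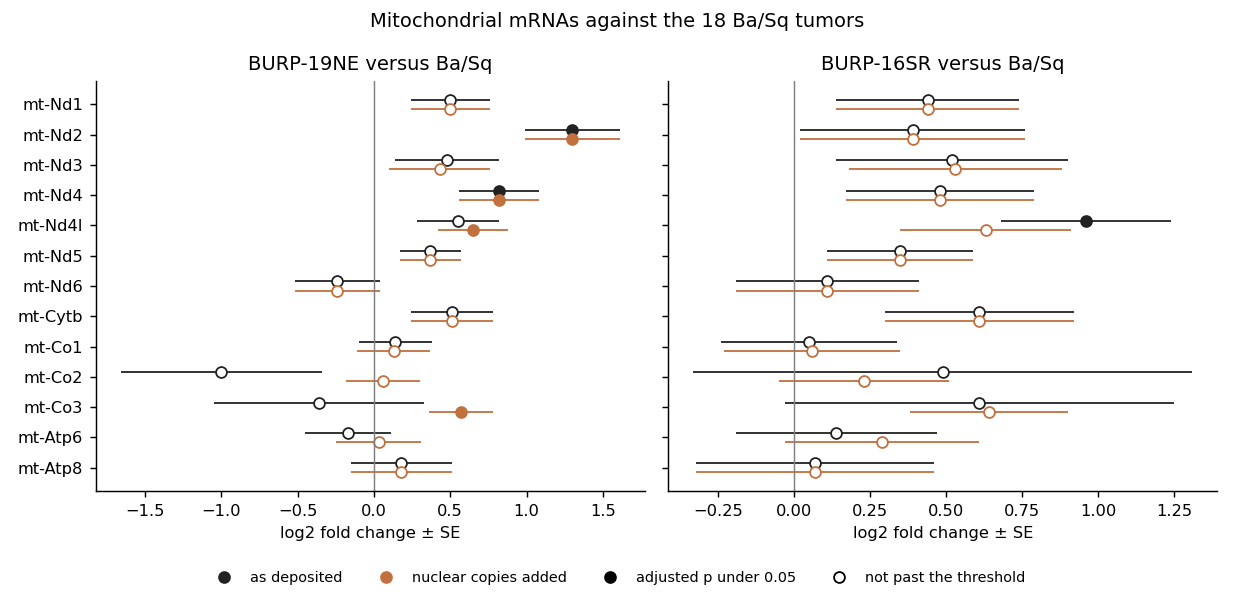
log2 fold change ± SE (x axis) of the 13 mitochondrial mRNAs (y axis) in BURP-19NE (left) and BURP-16SR (right) against the 18 Ba/Sq tumors, for counts as deposited (black) and with nuclear copies added (orange), where filled points have an adjusted p under 0.05. mt-Nd2 is the farthest to the right in BURP-19NE at 1.3, and mt-Co2 moves from -1.0 to 0.06 when its copy is added.

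mt-Nd2 was also set against other mitochondrial mRNAs of the same library. The ratio of mt-Nd2 to mt-Nd1 per kilobase was 0.737 ± 0.081 in BURP-19NE (SD, n = 3, from 0.69), 0.413 ± 0.083 in Ba/Sq tumors (SD, n = 18, up to 0.643 in C102-M30) and 0.394 ± 0.0306 in BURP-16SR (SD, n = 3). The ratio of mt-Nd2 to mt-Co1 was 0.278 ± 0.0214 in BURP-19NE (0.255 to 0.296), 0.15 ± 0.0219 in BURP-16SR and 0.13 ± 0.0641 in Ba/Sq tumors, where C102-M30, at 0.298, lay above all BURP-19NE tumors and the next was at 0.239. These ratios are given as a description, since the choice of mt-Nd2 followed its fold change. Of the mRNA pool per kilobase with copies added, mt-Nd2 made up 5.07% in BURP-19NE, the highest line mean, and 1.70% in BURP-24BaSq, the lowest. mt-Nd4 was also highest in BURP-19NE, at 6.50%, and lowest in BURP-24BaSq, at 3.49%.

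mt-Nd6, the one mRNA of the light strand, varied the most in this pool with mt-Nd2 (coefficients of variation 39.8% and 39.7%). It made up 6.70% in BURP-18BaSq and 2.67% in BURP-19NE, the highest and lowest line means. Its ratio to mt-Nd5, the neighbour on the other strand, was 0.703 ± 0.0979 in BURP-19NE, 0.917 ± 0.147 in BURP-16SR and 1.06 ± 0.219 in Ba/Sq tumors, where it ran from 0.56 in C102-M3 to 1.57 in C148-M3. The strand setting of the counting is not given in the sources used here, and mt-Nd5 and mt-Nd6 overlap at their ends. Lines accounted for 59.1% (mt-Atp8) to 87.1% (mt-Co2) of the sum of squares of these pool shares, which are taken within the mRNAs. For the summed mRNA share of all counts, also with copies added, the figure was 37.7%, and 46.9% without C102-M30. The 2 kinds of share have different totals.

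**Figure D4:**
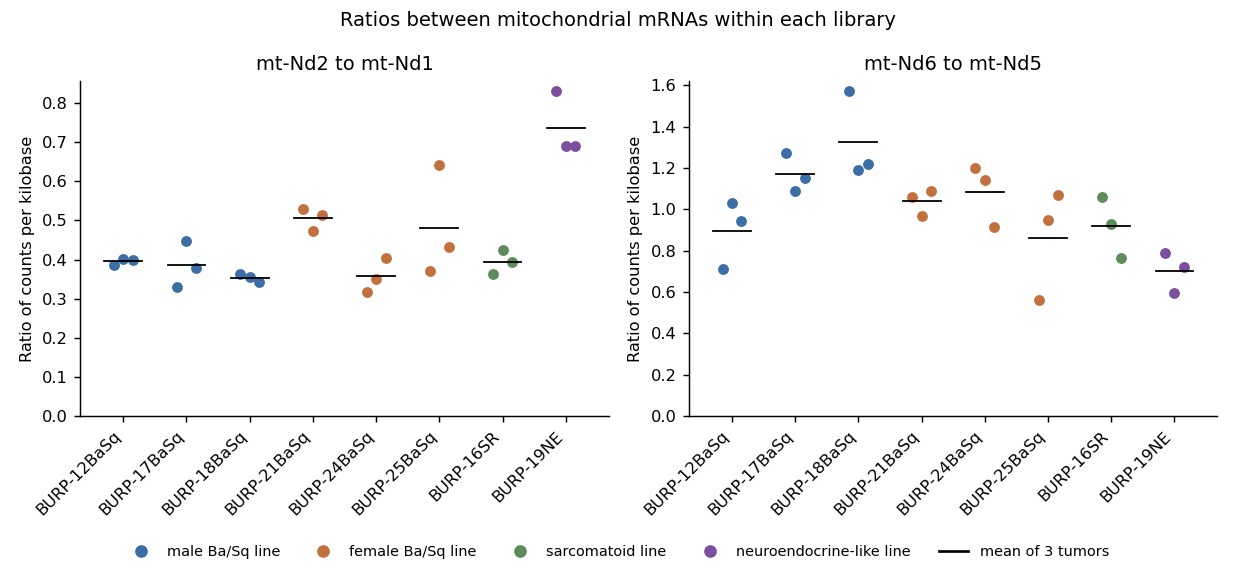
Ratio of counts per kilobase (y axis) of mt-Nd2 to mt-Nd1 (left) and of mt-Nd6 to mt-Nd5 (right) in the 3 tumors of each line, with the line mean as a bar. The BURP-19NE tumors lie at 0.69 to 0.831 at the left, above all other tumors, and at 0.597 to 0.79 at the right.

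Skeletal muscle, rich in mitochondria, was present unevenly. Its summed markers were at 2050 CPM in C80-M1 of BURP-19NE, 17.7 in C80-M3 and 37 in C80-M30, and at 11.9 to 265 CPM in Ba/Sq tumors. In BURP-16SR they were at 53.9 CPM in C73-M10, 583 CPM in C74-MNT and 31.4 CPM in P5. Without C80-M1 the log2 fold change of mt-Nd2 was 1.27 (adjusted p = 0.0211). The other marker sums in BURP-19NE, BURP-16SR and Ba/Sq tumors were 1160 to 1890, 581 to 19900 and 208 to 9750 CPM for fibroblasts, 62.7 to 86.7, 277 to 445 and 41.9 to 481 for endothelium, and 219 to 297, 139 to 760 and 20.5 to 995 for macrophages. They were 2.30 to 3.93, 18.9 to 150 and 1.32 to 360 CPM for adipocytes, 4.30 to 13.3, 1.88 to 49.8 and 2.30 to 38.1 for T cells, and 15.2 to 27.6, 44.3 to 111 and 4.12 to 281 for red blood cells. The part of these other cells in the mitochondrial values was not tested.

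In BURP-16SR, 1 of the 16 genes was called, mt-Nd4l, higher, while 25.1% of 21028 genes were called (13.8% higher). It stood at 93.1, 186 and 150 CPM in BURP-16SR and at 43.3 to 128 CPM, with a median of 71.9, in Ba/Sq tumors, with a log2 fold change of 0.96 (SE 0.28, adjusted p = 0.0149). The groups overlapped, and with the counts of Gm10222 added the fold change was 0.63 (adjusted p = 0.098) and no gene was called. As deposited, the call was also lost without C74-MNT (adjusted p = 0.156) or without P5 (adjusted p = 0.102). All 13 mRNAs had a log2 fold change above 0, from 0.05 (mt-Co1) to 0.96, with a median of 0.44 against -0.03 over all genes, but mt-Nd4l alone was under 0.05 also before adjustment. Without C74-MNT, mt-Nd1 was at -0.15 and mt-Co1 at -0.43, and without C102-M1 and C102-M30 mt-Co1 was at -0.06. mt-Cytb was at 0.61 (SE 0.31, adjusted p = 0.15) and mt-Nd1 at 0.44 (SE 0.30). The BURP-16SR tumors lay far apart, with mt-Nd2 at 342, 1310 and 622 CPM and mt-Nd4 at 878, 3010 and 1880 CPM in C73-M10, C74-MNT and P5. mt-Rnr1 was at -2.74 (SE 3.04), and without C102-M1 and C102-M30 it was called at 2.92 (adjusted p = 0.0307), with C74-MNT at 2390 CPM and the other BURP-16SR tumors at 26.5 and 42.7 CPM.

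BURP-16SR and BURP-19NE were also compared with each other, and 1 of the 16 genes was called, mt-Co3, higher in BURP-16SR, beside 34.3% of 17556 genes (19.2% higher). mt-Co3 as deposited stood at 258, 315 and 284 CPM in BURP-16SR and 95.6, 179 and 179 CPM in BURP-19NE (log2 fold change 1.01, SE 0.26, adjusted p = 0.0266). With the counts of Gm28437 added, mt-Co3 was at 2510 ± 1260 and 2460 ± 173 CPM (SD over 3 tumors each). The log2 fold change became 0.11 (adjusted p = 0.855), and no gene was called. mt-Nd2 did not overlap between the lines but did not pass (-0.87, SE 0.47, adjusted p = 0.189). As deposited, the call of mt-Co3 was lost without C73-M10, C74-MNT, C80-M3 or C80-M30, each alone (adjusted p = 0.0536 to 0.0634). Groups without overlap made up 2 of the 16 genes and 51.7% of all genes.

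BURP-24BaSq, whose source tumor also had sarcomatoid features, was compared with BURP-16SR. Here mt-Nd4l was called lower in BURP-24BaSq, as 1 of the 16 genes, beside 38% of 18283 genes (20.4% lower). It stood at 48.4, 75.2 and 43.3 CPM there against 93.1, 186 and 150 CPM (log2 fold change -1.42, SE 0.32, adjusted p = 0.0131). The tumors did not overlap for mt-Nd4l, 1 of the 16 genes, nor for 53.5% of all genes. With the copy added its fold change was -0.93 (adjusted p = 0.126) and no gene was called. As deposited, the call was lost without C81-M1 (adjusted p = 0.0631) or without P2 of BURP-24BaSq (adjusted p = 0.0538). This comparison shares its BURP-16SR tumors with the ones above.

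Between male and female Ba/Sq lines no mRNA was called, and none had an unadjusted p under 0.05. The log2 fold changes, male relative to female, ran from -0.49 (mt-Co3) to 0.27 (mt-Nd4l), with a median of -0.08 against 0.04 over all genes. Both rRNAs were called lower in males, with 5.46% of 17922 genes called (2.99% higher and 2.47% lower), at -7.76 for mt-Rnr1 (SE 1.87, adjusted p = 0.0214) and -5.55 for mt-Rnr2 (SE 1.45, adjusted p = 0.0316). The male tumors were at 9.51 to 104 CPM for mt-Rnr1, with a median of 46.9, and the female tumors at 20.7 to 105000 CPM, with a median of 71.7. The female value rested on C102-M30, and without that library no gene was called, with mt-Rnr1 at -1.74 (adjusted p = 0.13) and mt-Rnr2 at -0.34 (adjusted p = 0.604). The call of mt-Rnr2 was also lost without C47-M3 or any 1 of the 3 BURP-18BaSq tumors (adjusted p = 0.0516 to 0.0555). The exact permutation test of the summed rRNA share, 0.0373 ± 0.0164% in males and 0.63 ± 1.70% in females (SD, n = 9 each), gave p = 0.0947 (adjusted p = 0.667).

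Among the 6 Ba/Sq lines, a test for any difference called 5 of the 16 genes, with 50.5% of 20523 genes called. These were mt-Nd1 (adjusted p = 0.0422), mt-Nd2 (0.013), mt-Atp8 (0.0206), mt-Rnr1 (0.00167) and mt-Rnr2 (0.00118). Without C102-M30 the called genes were mt-Nd2 (0.0357), mt-Atp8 (0.0279) and mt-Nd3 (0.0316), and neither rRNA. Without C102-M1 mt-Nd4 (0.0304) was called in addition to the 5, and with copies added mt-Atp6 (0.0205) and mt-Nd3 (0.00511) were. Over all 8 lines 4 genes were called, mt-Nd2 (0.00164), mt-Nd4 (0.0448) and both rRNAs, with 76.7% of 21383 genes called. Without C102-M30 these were mt-Nd2 (0.00155), mt-Nd3 (0.0302) and mt-Nd4 (0.0412), and the rRNAs were not called (0.0627 and 0.571). Without C102-M1 mt-Nd1 (0.0381) was called in addition, and with copies added mt-Co3 (0.0467) and mt-Nd3 (0.00741) were. The called share of the 16 mitochondrial genes as deposited was below that of all genes in both tests.

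The nuclear subunits of the same complexes were tested in the same fits. In BURP-16SR, 0 of 75 tested were called higher and 20 lower (of 80 listed), with a median log2 fold change of -0.28 against -0.03 over all genes and with 13.8% of all genes called higher and 11.3% lower. The fallen subunits were 5 of 36 of complex I, 5 of 9 of complex III, 5 of 11 of complex IV and 5 of 15 of complex V. Ndufa4, a subunit of complex IV, averaged 15.1 ± 1.06 CPM in the 3 BURP-16SR tumors, against 95.7 ± 49.8 CPM over the 18 Ba/Sq tumors (log2 fold change -2.6, SE 0.52, adjusted p = 0.000845). Ndufa9 of complex I fell by 1.0 on the log2 scale (adjusted p = 0.000268) and Ndufb2 by 1.06, Cox7c of complex IV by 0.89 (adjusted p = 0.000838), the complex III iron-sulfur protein Uqcrfs1 by 0.67 and the complex V subunits Atp5g3 and Atp5b by 0.91 and 0.73. The count of 20 was 20 without C102-M1 and C102-M30, 7 without C73-M10 and 35 with all 24 tumors in the fit. Against BURP-16SR, BURP-24BaSq had 22 of the 75 higher and 2 lower (17.6% and 20.4% of all genes), led by Ndufa4 at 3.25 (SE 0.22, adjusted p = 0.000139). This count of 22 was 11 without C81-M1 of BURP-24BaSq and 36 without P5 of BURP-16SR. BURP-16SR had 3 higher and 14 lower than BURP-19NE (19.2% and 15.1% of all genes), and the 14 became 5 without C80-M1 and 30 without P5.

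In BURP-19NE, 8 of the 75 subunits were higher and 6 lower than in Ba/Sq tumors, with a median of -0.12 against -0.14 over all genes. Both shares were below the 15.5% and 17.9% of all genes called higher and lower. Of 36 complex I subunits, 6 were higher, a share near that of all genes, among them Ndufa13 at 44.1 ± 3.59 and 26.7 ± 4.15 CPM (0.75, adjusted p = 0.00034), Ndufb6 (0.78, adjusted p = 0.00482) and Ndufb8 (0.61), and 1, Ndufb9, was lower (-0.63). Of 15 complex V subunits, 4 were lower and none higher, among them Atp5g3 (-0.81) and Atp5h (-0.58). Complex II had 1 of 4 higher, complex III 1 of 9 lower and complex IV 1 of 11 higher. Leaving out 1 BURP-19NE tumor lowered the count of 8 to as few as 3 and the count of 6 to as few as 2. Between the sexes 0 subunits were higher and 2 lower (2.99% and 2.47% of all genes), and the 2 became 0 to 3 on leaving out 1 tumor, 1 without C102-M1 and C102-M30 and 14 with all 24 tumors in the fit.

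**Figure D5:**
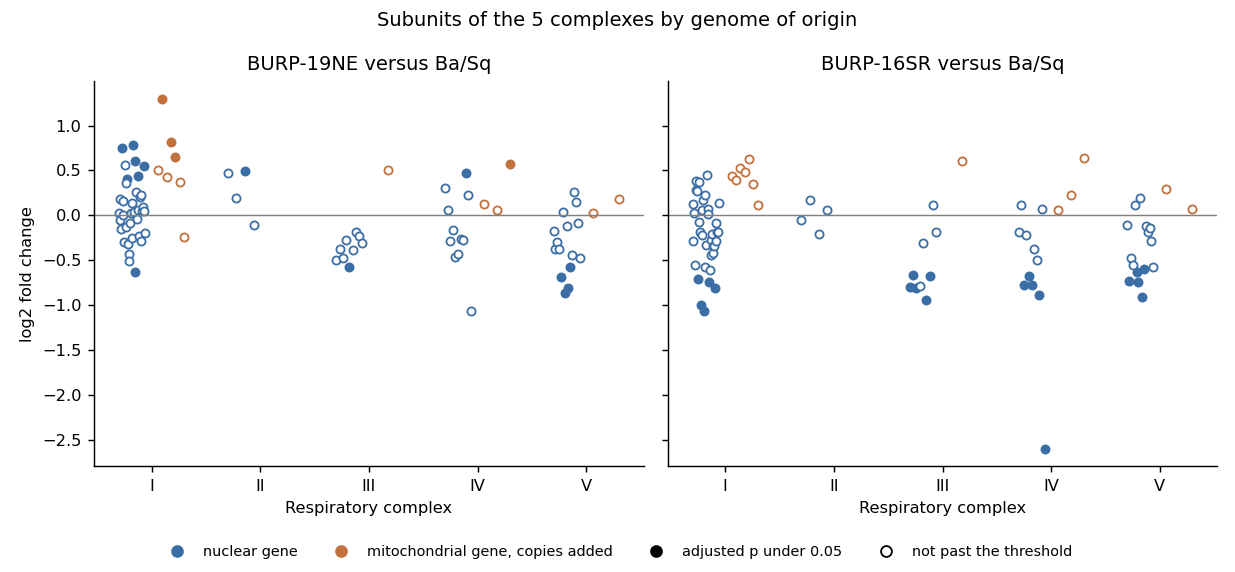
log2 fold change (y axis) of the subunits of complexes I to V (x axis), nuclear genes in blue and mitochondrial genes with copies added in orange, in BURP-19NE (left) and BURP-16SR (right) against Ba/Sq tumors, where filled points have an adjusted p under 0.05. At the right all 20 filled blue points lie below 0, the lowest being Ndufa4 at -2.6.

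Of 79 mitochondrial ribosomal proteins, 11 were higher and 8 lower in BURP-19NE than in Ba/Sq tumors and 3 higher and 10 lower in BURP-16SR. Over all genes 15.5% and 17.9% were called in BURP-19NE and 13.8% and 11.3% in BURP-16SR. The list share lower in BURP-16SR, 12.7%, was near that of all genes, and the other list shares were below theirs. Dap3, a protein of the small subunit, was higher in both (1.09, adjusted p = 3.61e-05, and 1.08, adjusted p = 6.01e-05), and Mrps31 was at 19.4 and 8.72 CPM in BURP-19NE and Ba/Sq tumors (1.18, adjusted p = 1.31e-06). Mrpl48 (-0.91) and Mrpl12 (-0.88) fell in BURP-19NE. Without 1 of the BURP-19NE tumors as few as 5 were higher and 2 lower, and without C73-M10 4 were lower in BURP-16SR.

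Of 34 genes for processing, modification and stability of mitochondrial RNA, 5 were higher and 5 lower in BURP-19NE, both shares below those of all genes (15.5% and 17.9%). Hsd17b10, a subunit of the RNase P that cuts the tRNAs out of the precursor, was higher (1.01, adjusted p = 0.0005), as were Fastkd2 and Ptcd3 (0.74 each), while Tbrg4 (-1.0, adjusted p = 0.0011) and Nsun3 (-0.96), which modifies the methionine tRNA, were lower. In BURP-16SR, 2 were higher and 6 lower (13.8% and 11.3% of all genes), among the lower ones Pnpt1, the mitochondrial polynucleotide phosphorylase, at 12.2 and 36.5 CPM (-1.51, adjusted p = 0.00671), Elac2 (-0.86), which trims the 3' ends of tRNAs, and Grsf1 (-0.48). Without C102-M1 and C102-M30 the 2 became 0, and the 5 higher in BURP-19NE became 3. Without C80-M30 the counts for BURP-19NE were 1 and 3, and without C73-M10 those for BURP-16SR were 0 and 1. Of 18 genes of mitochondrial DNA replication and transcription, 2 were higher in BURP-19NE, a share below the 15.5% of all genes, with Mterf2 at 1.14 (adjusted p = 0.00109), and 1 was lower in BURP-16SR. Polg, the mitochondrial DNA polymerase, was higher in male than in female Ba/Sq tumors, at 104 ± 46.7 and 45.6 ± 8.59 CPM (1.19, adjusted p = 0.00711).

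Of 8 regulators of mitochondrial biogenesis, 2 were higher and 1 lower in BURP-19NE (15.5% and 17.9% of all genes). The coactivator Ppargc1b was at 0.601 ± 0.155 CPM there and 9.21 ± 5.08 CPM in Ba/Sq tumors (-3.90, SE 0.58, adjusted p = 2.98e-05), and it was lower in BURP-16SR also (-2.21, adjusted p = 0.0163), though not without C73-M10 (adjusted p = 0.0517) or P5 (0.0582). Gabpb1, which encodes a subunit of the factor NRF-2, was higher in BURP-19NE (0.75, adjusted p = 0.000188). Of 5 nuclear retained RNAs, 1 was lower in BURP-19NE (17.9% of all genes), and 1 was higher and 1 lower in BURP-16SR (13.8% and 11.3% of all genes). The list includes Xist. Both lines are male and the Ba/Sq lines are of both sexes, and the part of sex in these counts was not tested.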

How the data were processed

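Total RNA of 24 tumors was depleted of rRNA and sequenced in pairs with 100 cycles. Per the labels and the study's methods, reads were demultiplexed with CASAVA 1.8.2 and aligned by the authors with STAR 2.6.0a to GRCm38 with GENCODE M16, and RSEM 1.3.1 gave the deposited expected counts per gene. RSEM divides reads that fit several genes between them, which affects the genes with nuclear copies. Of the values 12.5% were not whole, and all were rounded. The strand setting is not given in the sources used here. Symbols came from an annotation of GRCm38 for 53360 genes (99.8%), and no column was left out.

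The members, gene lists and comparisons were chosen with earlier results of these data known. Subtype and sex of each line were taken from the study. Counts were tested with edgeR 4.0.16 (R 4.3.3), with TMM, filterByExpr and quasi-likelihood F tests on the tumors of each comparison, adjusted over all genes by Benjamini-Hochberg. Shares were compared by exact permutation tests (scipy 1.17.1). Nuclear copies were found with BLAST+ 2.17.0 among annotated transcripts, at 99% identity over at least 200 bases. The text names all mRNAs and rRNAs, tRNAs with at least 10 counts in 12 tumors and the highest, and from each list up to 4 genes per direction with the largest fold change among those called without overlap of the groups. Alternatives used DESeq2 1.42.0, limma 3.58.1, other filters, scalings and totals, added copies, and tumors left out. Tested on simulated counts, the fits found 83% to 95% of 200 genes changed 4-fold, with 2.65% to 6.74% of calls false. The simulated tumors were drawn independently with a dispersion of 0.1 and no other difference between lines. These rates therefore do not cover real tumors, where those of a line are alike.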

Additional observations from a re-analysis of the deposited data

Results flagged for a closer look

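Within the 9 male and the 9 female Ba/Sq tumors, 36 sets of values (18 measures of the 37 genes in each sex) were searched for a tumor whose gap to the next, divided by the range, exceeded Dixon's critical value of 0.493. Such a tumor was found in 4 of the 36 sets, and these came from 2 tumors. Chance alone gives about 1.8 for normally distributed values. The sets share their tumors, and the rRNA share is made up of both rRNAs. The count of 4 is therefore a description and no test against 1.8. C102-M30 stood apart among the female tumors for the share of counts on mitochondrial rRNA (5.16%, ratio 0.967), for mt-Rnr1 (105000 CPM, ratio 0.993) and for mt-Rnr2 (120000 CPM, ratio 0.995). This is the library with 61.9% of its counts on CT010467.1. C148-M3 of BURP-18BaSq stood apart among the male tumors for mt-Nd6, at 1050 CPM (ratio 0.638), where the other tumors of its line were at 534 and 354 CPM. The TMM factor of C148-M3, 0.732, was the lowest after that of C102-M30, and its part in this value was not tested.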

How the results depend on the processing

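The call of mt-Nd2 in BURP-19NE held in all alternatives run. The calls of mt-Nd4l and mt-Co3 in the comparisons with BURP-16SR depended on how reads of gene and copy were divided. With copies added, the genes called were 4 for BURP-19NE and 0 for BURP-16SR against Ba/Sq, 0 for BURP-16SR against BURP-19NE and 0 for BURP-24BaSq against BURP-16SR, and log2 fold changes in BURP-19NE turned to 0.06 (mt-Co2), 0.03 (mt-Atp6) and 0.57 (mt-Co3). Without C102-M1 and C102-M30, chosen after seeing the data like the alternatives on the nuclear lists, 2 genes were called for BURP-16SR and 0 between the sexes, mt-Co1, mt-Rnr1 and mt-Rnr2 in BURP-16SR turned to -0.06, 2.92 and 0.67, the mRNA share between the sexes to -0.18 and the rRNA share of BURP-16SR against Ba/Sq to 0.0771 points. With all 24 tumors in 1 fit, 0 genes were called for BURP-16SR against BURP-19NE, and mt-Rnr1 in BURP-16SR turned to 1.81. Between the sexes 0 genes were called with DESeq2, with counts summed per line and with limma-voom, and 1 with the label style as a covariate. DESeq2 put mt-Rnr1 and mt-Rnr2 in BURP-16SR at 2.93 and 0.73, with no adjusted p, and without a filter mt-Co1 stood at -0.04. Without C102-M30, 3 genes differed between the 6 Ba/Sq lines. With nuclear rRNA genes out of the total, or over protein-coding counts, the mRNA share turned to -0.0833 and -0.409 points for BURP-24BaSq against BURP-16SR and to -0.0208 and -0.0749 between the sexes, and on a log2 scale the rRNA share of BURP-24BaSq against BURP-16SR turned to 0.203. The cause was not tested.

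Leaving out each tumor in turn gave 1 to 2 called genes for BURP-19NE and 0 to 2 for BURP-16SR against Ba/Sq, 0 to 1 for BURP-16SR against BURP-19NE, 0 to 2 for BURP-24BaSq against BURP-16SR and 0 to 2 between the sexes. The mRNA share then ran from -0.336 to 0.584 points for BURP-16SR against Ba/Sq, from -0.455 to 0.464 for BURP-24BaSq against BURP-16SR and from -0.135 to 0.143 between the sexes. The rRNA share ran from -0.315 to 0.0754 points, from -0.0139 to 0.151 against BURP-19NE and from -0.131 to 0.0339 for BURP-24BaSq. The log2 fold changes ran from -0.15 to 0.76 (mt-Nd1), -0.43 to 0.38 (mt-Co1), -7.34 to 2.83 (mt-Rnr1) and -5.39 to 0.68 (mt-Rnr2) in BURP-16SR, from -0.05 to 0.76 for mt-Co1 in BURP-24BaSq and from -0.00 to 0.19 for mt-Co1 in BURP-19NE. The label style was not run as a covariate in the comparisons with BURP-19NE, whose tumors are all labelled by cage and mouse. No paired analysis was run, because the labels name no animal or batch that is common to the groups compared. Each of BURP-16SR and BURP-19NE is 1 line.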
